A study of Mus musculus with 12 samples.

Results

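The long intergenic noncoding RNAs (lincRNAs) of small-intestinal dendritic cells (DCs) were described in 12 RNA-seq libraries. A gene was taken as a member when GENCODE M21 gives it the biotype lincRNA on chromosomes 1 to 19 and its raw count averaged at least 20 over the 12 samples. Meg3, Rian and Mirg were left out by name, of which 1 had reached the threshold. These terms were met by 159 of 53801 genes in the files, drawn from 4695 autosomal lincRNA genes of which 2218 had a count in any sample. The members were selected on this mean count, which is a measured value. It stood at 20 for Gm26890 and 20.5 for 2010013B24Rik, just inside the threshold, and at 19.9 for 5033406O09Rik and 19.8 for Fam120aos, just outside it. All 159 passed the filter on low counts. The threshold was on the mean over all samples, and the group mean reached 20 counts in all 4 groups for 109 members, in 3 groups for 24, in 2 for 21 and in 1 for 5, namely 2900052N01Rik, 4933424M12Rik, Gm13391, 3300005D01Rik and 2010013B24Rik.

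The samples were CD103+CD11b- and CD103-CD11b+ DCs from wild-type mice (WT) and from Cbfb F/F: CD11c-Cre mice (cKO), with 3 samples in each of the 4 groups, which the study describes as sorted from different mice without saying whether both subsets came from the same ones. The mice were of mixed background, and no age is given in the labels. Cre was driven by the CD11c promoter, which is not restricted to DCs and is described by the study as leaky in T cells. Cbfb encodes the partner of the DNA-binding Runx proteins, and CD103+CD11b- and CD103-CD11b+ DCs of the gut are usually counted as conventional DC type 1 (cDC1) and type 2 (cDC2).

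A lincRNA is transcribed by RNA polymerase II, is often capped, spliced and polyadenylated like an mRNA, and has no long open reading frame. Some work in cis on a neighbouring gene, some build nuclear bodies, and others are mainly the precursors of small RNAs held in their exons or introns. lincRNAs are on average lower and more restricted to a cell type than mRNAs, which makes them useful marks of cell identity.

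Total counts on genes ran from 2161929 to 5863484 per sample. Values are given as CPM, the counts of a gene relative to all counts on genes after TMM scaling, which corrects the library size for composition. Cbfb itself, counted over the whole gene, was at 214 ± 14.8 CPM in WT and 242 ± 41.9 in cKO CD103+CD11b- DCs, and at 188 ± 28.2 and 207 ± 56.9 in CD103-CD11b+ DCs (SD, n = 3), so the gene count, which does not resolve the loss of single exons, did not check the labels. A list of 8 cDC1 markers summed to 4871 to 8057 CPM in the CD103+CD11b- samples and to 1958 to 3375 in the CD103-CD11b+ samples. A list of 6 cDC2 markers summed to 976 to 1623 CPM in the CD103-CD11b+ samples, to 366 to 626 in WT and to 84.1 to 137 in cKO CD103+CD11b- samples. Other cell types left marker reads in spite of a gate on CD45+CD64-CD11c+MHC-II+ cells. The 6 stromal markers summed to 1146 and 1031 CPM in WT CD103-CD11b+ replicates 2 and 3 and to 1484 in cKO CD103-CD11b+ replicate 2, against 66.3 to 485 in the other CD103-CD11b+ samples. The 9 B-cell markers summed to 165 to 365 CPM in WT and 330 to 852 in cKO CD103-CD11b+ samples. In bulk samples like these, fewer cells of a type and less RNA per cell cannot be told apart.

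The promoters of the members on which the results below turn are shown first, because Cbfb acts through Runx proteins and these are the windows where a Runx site would be looked for. Of the 159 members, 89 matched a RefSeq gene by symbol or synonym on an overlapping span and 74 had a promoter window, 80 windows in all. Each window holds 250 bases before and 50 after the RefSeq start (GRCm38.p6), written 5′ to 3′ on the strand of the gene. Capitals mark a match to TGTGGT or TGCGGT, the Runx core, on either strand. The same windows were searched for GAGGAAGT, a core of the myeloid factor PU.1, on either strand, which was in none of the 4 shown.
2900052N01Rik, chr9:46913353-46913652, plus strand: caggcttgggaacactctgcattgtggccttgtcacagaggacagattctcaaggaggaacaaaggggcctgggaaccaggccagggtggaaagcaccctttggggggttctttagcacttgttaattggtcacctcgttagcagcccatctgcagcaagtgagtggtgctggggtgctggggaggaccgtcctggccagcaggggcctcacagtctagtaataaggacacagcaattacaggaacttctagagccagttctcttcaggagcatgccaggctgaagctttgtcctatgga
AU020206, chr7:75782071-75782370, minus strand: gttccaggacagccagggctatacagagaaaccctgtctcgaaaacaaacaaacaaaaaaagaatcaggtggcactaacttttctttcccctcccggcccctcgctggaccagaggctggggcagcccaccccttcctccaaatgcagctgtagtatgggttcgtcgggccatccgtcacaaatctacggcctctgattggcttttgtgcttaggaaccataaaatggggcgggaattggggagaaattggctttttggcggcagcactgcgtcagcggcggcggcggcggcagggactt
Gm36723, chr12:25355651-25355950, plus strand: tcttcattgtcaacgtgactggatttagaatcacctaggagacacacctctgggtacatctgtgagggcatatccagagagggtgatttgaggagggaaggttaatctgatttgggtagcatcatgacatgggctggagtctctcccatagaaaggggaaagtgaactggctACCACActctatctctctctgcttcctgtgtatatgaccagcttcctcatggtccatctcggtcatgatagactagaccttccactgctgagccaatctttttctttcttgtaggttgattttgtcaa
Gpr141b, chr13:19732902-19733201, minus strand: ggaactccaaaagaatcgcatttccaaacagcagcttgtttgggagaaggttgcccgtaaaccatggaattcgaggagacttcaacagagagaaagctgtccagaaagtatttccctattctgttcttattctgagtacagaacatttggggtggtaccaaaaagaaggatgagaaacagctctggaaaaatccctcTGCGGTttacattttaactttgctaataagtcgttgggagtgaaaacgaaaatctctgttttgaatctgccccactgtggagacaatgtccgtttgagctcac
The Runx letters began 53 bases before the start in the window of Gpr141b and 78 bases before it in that of Gm36723, and were not in the windows of 2900052N01Rik and AU020206. The RefSeq start used lies 51961 bases from the GENCODE start for Gm36723, so its window is that of an inner start. It lies 110 bases away for 2900052N01Rik, 21 for AU020206 and 0 for Gpr141b. Runx letters were in 21 of the 80 member windows (26.25%), in 13 of the 36 windows of members called between the subsets (36.1%) and in 7362 of all 32851 windows in the table (22.4%). PU.1 letters were in 9 of the 80 (11.25%), in 5 of the 36 (13.9%) and in 1052 of all (3.20%). Some of the counted windows lie far from the GENCODE start, such as that of Nav1 for Gm38399 (102750 bases) and those of Gm31718 (54967 and 79510). The shares are therefore not those of promoters of the counted transcripts alone. A match of 6 or 8 letters is a description and not a bound site. Gm26857 and Gm26780 are named here without a window.

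Other members hold microRNAs on their own strand, and 11 mature products of the hosts described further on are printed, not all that these hosts hold, with the seed, bases 2 to 8, in capitals. In all, 8 members held 30 mature microRNAs with 25 distinct seeds (RefSeq, GRCm38.p6). The libraries measured the host transcript and not the mature microRNA.
miR-101a-3p, from E130102H24Rik: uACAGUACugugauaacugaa
miR-155-5p, from Mir155hg: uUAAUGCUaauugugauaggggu
miR-142a-3p, from Mir142hg: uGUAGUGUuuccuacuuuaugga
miR-142a-5p, from Mir142hg: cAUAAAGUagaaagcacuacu
miR-17-5p, from Mir17hg: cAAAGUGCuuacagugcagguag
miR-20a-5p, from Mir17hg: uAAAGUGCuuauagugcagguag
miR-19a-3p, from Mir17hg: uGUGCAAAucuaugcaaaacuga
miR-19b-3p, from Mir17hg: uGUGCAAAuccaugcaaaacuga
let-7a-5p, from 6720427I07Rik: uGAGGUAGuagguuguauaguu
let-7d-5p, from 6720427I07Rik: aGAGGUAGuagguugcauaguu
let-7f-5p, from 6720427I07Rik: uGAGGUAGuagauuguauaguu
The miR-17-5p and miR-20a-5p pair shares 1 seed, the miR-19a-3p and miR-19b-3p pair another, and the 3 let-7 products a further one.

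The effect of cKO in CD103-CD11b+ DCs was tested first. It asks which lincRNAs differ in the CD11b-expressing DCs that remain when Cbfb is lost from CD11c-expressing cells. Of the 159 members 2 rose and 1 fell, which is 1.89% of them, against 1.61% of all 20580 genes tested, of which 1.11% rose and 0.5% fell (edgeR quasi-likelihood test, Benjamini-Hochberg FDR under 0.05 and a fold over 1.3). The share was 2.36% among 10731 autosomal protein-coding genes and 3.20% among 1095 autosomal genes of other long noncoding biotypes chosen at the same mean count. The members that passed were 2900052N01Rik, Gm26857 and Gm36723. Before adjustment 39 members had p under 0.05, of which 32 were higher in cKO. So had 3590 of all 20580 genes tested, 1706 of them higher, and 254 of the 1095 other long noncoding genes, 214 of them higher. The median log2 fold change of the members was 0.14, against -0.06 over all genes tested and 0.22 over the other long noncoding genes. With RLE scaling 2 members rose and 2 fell, against 228 and 100 of all genes tested.

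2900052N01Rik (ENSMUSG00000099696, chromosome 9, 46913493 to 46927366, plus strand; GRCm38), a transcript whose role is not described in the sources used here, had the largest fold of the members called in this comparison. It is a member only through the group where it was high, with a mean of 106 counts in cKO CD103-CD11b+ DCs and of 9.78 over the other 9 samples, so its place among the members is no support for the rise. It stood at 3.52, 1.33 and 5.24 CPM in WT and at 29.9, 27.8 and 34.2 CPM in cKO CD103-CD11b+ replicates 1 to 3. The groups did not overlap, and the 3 cKO samples lay close together. The change was 8.93-fold (log2 fold change 3.16 ± 0.55 SE, edgeR adjusted p = 0.0194). The body of the gene overlapped no other gene, and the nearest coding gene, Gm4791, was 71375 bases away and too low to test. The call was lost without WT replicate 2 (adjusted p = 0.0549), cKO replicate 1 (0.0569) or cKO replicate 2 (0.0548) of this subset, and without the 2 libraries highest in stromal markers, 1 of each genotype (0.128), and in a fit to these 6 samples alone (0.0754), while the log2 fold change stayed between 2.82 and 3.60.

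Gm26857 (chromosome 4, 3678117 to 3689548, minus strand) overlaps Lyn, which encodes a Src-family kinase of myeloid and B cells, on the opposite strand. It stood at 159, 120 and 143 CPM in WT and at 206, 240 and 284 CPM in cKO CD103-CD11b+ DCs. All cKO samples were above all WT samples. The change was 1.73-fold (log2 fold change 0.79 ± 0.14 SE, edgeR adjusted p = 0.0228). Lyn itself was at 296 ± 22.7 CPM in WT and 380 ± 105 in cKO (SD, n = 3; log2 fold change 0.36 ± 0.20 SE, edgeR adjusted p = 0.369). Of the exon bases of Gm26857, 7.41% were shared with another gene, and because reads were counted without regard to strand, intronic reads of Lyn and reads of Gm26857 cannot be told apart. The call was lost without WT replicate 2 or 3, cKO replicate 2 or 3, or CD103+CD11b- WT replicate 2 (adjusted p = 0.0520 to 0.0872), without the 2 libraries high in stromal markers (0.185) and in a fit to the 6 samples (0.191).

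Gm36723 (chromosome 12, 25303940 to 25471979, plus strand) is the member nearest to Id2, 206800 bases away, which encodes a helix-loop-helix inhibitor required for cDC1. It fell in cKO CD103-CD11b+ DCs, from 42.5, 36.6 and 24.7 CPM in WT to 18.2, 12.8 and 10.7 CPM. The lowest WT sample was above the highest cKO sample. The log2 fold change was -1.29 ± 0.27 SE (edgeR adjusted p = 0.0416). Id2 was at 114 ± 14.1 CPM in WT and 197 ± 49.6 in cKO of the same subset (log2 fold change 0.79 ± 0.21 SE, edgeR adjusted p = 0.0883). The call for Gm36723 rested on many samples at once, since it was lost in 8 of the 12 fits that left out a library (adjusted p = 0.0569 to 0.129) and without the 2 libraries high in stromal markers (0.250). The libraries were WT replicates 1 and 2 and cKO replicates 2 and 3 of this subset, and WT replicates 1 and 2 and cKO replicates 1 and 2 of CD103+CD11b- DCs.

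The number of calls in this subset moved with the fit and the samples used. A fit to these 6 samples alone called 0 members, and so did the fit without both libraries high in stromal markers. Without cKO replicate 2 alone, or WT replicate 2 alone, 0 members rose and 0 fell. Without WT replicate 1, 4 rose. Without CD103+CD11b- cKO replicate 3, 5 rose. Without cKO replicate 1 or 3, or CD103+CD11b- WT replicate 2, 1 rose. DESeq2 called 15 higher and 3 lower, and the likelihood ratio test of edgeR 12 and 3. Of all 20580 genes tested, DESeq2 called 659 higher and 477 lower, and the likelihood ratio test 578 and 476. The B-cell markers summed to 165 to 365 CPM in WT and 330 to 852 in cKO CD103-CD11b+ DCs, and 3 of 9 rose. The macrophage markers summed to 175 to 416 and 345 to 533 CPM, and 1 of 9 rose. The neutrophil markers summed to 40.4 to 44.6 CPM in WT and 90.5 to 136 in cKO, and 1 of the 3 tested rose. The 8 epithelial markers summed to 223 to 401 CPM in WT and 62.1 to 112 in cKO, with 0 called by edgeR, 5 at p under 0.05 and 3 called by DESeq2. The part of these cells in the lincRNA values was not tested.

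Members just short of the threshold included 9330175E14Rik, which runs antisense to Nlrc5, a regulator of MHC class I genes. It was at 8.42, 8.0 and 5.82 CPM in WT and 17.3, 15.2 and 14.8 CPM in cKO CD103-CD11b+ DCs, with an edgeR adjusted p of 0.0671. In CD103+CD11b- DCs the values were 8.89, 6.86 and 7.92 CPM in WT and 19.1, 23.9 and 12.9 CPM in cKO, with an edgeR adjusted p of 0.0536. The cKO samples were above the WT samples in each subset, and neither difference passed. This member was named after its values were seen.

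**Figure D1:**
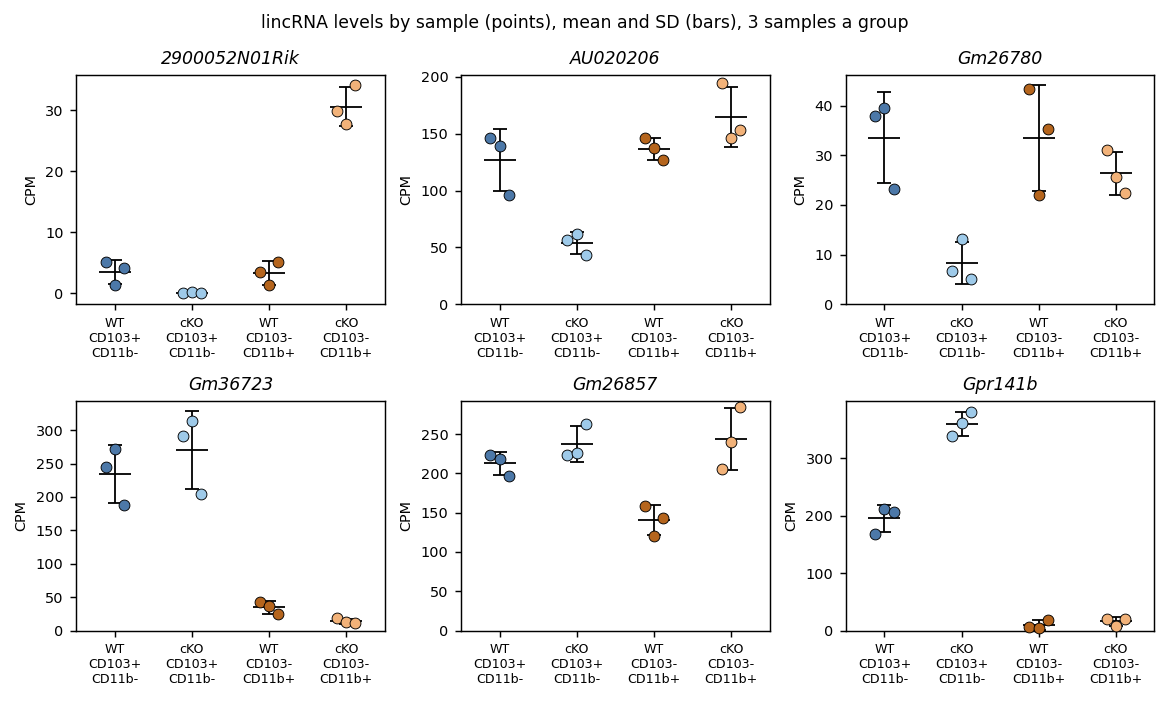
CPM (vertical axis, linear) of 6 lincRNAs in the 4 groups; points are the 3 samples of a group, the long bar is the mean and the whiskers are 1 SD. 2900052N01Rik lies between 27.8 and 34.2 CPM in cKO CD103-CD11b+ samples and at or below 5.24 CPM in all others, while AU020206 and Gm26780 are low in the cKO CD103+CD11b- samples.

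In CD103+CD11b- DCs, the cKO comparison gave 3 members that fell and 0 that rose, again 1.89% of the members, against 1.02% of all genes tested, of which 0.797% fell and 0.224% rose (edgeR). The share was 1.57% among the coding and 1.28% among the other long noncoding genes. AU020206, 2900052N01Rik and Gm26780 were the members that fell. Before adjustment 8 members were higher and 17 lower at p under 0.05. Of all 20580 genes tested 800 were higher and 1366 lower at this limit, and of the 1095 other long noncoding genes 56 and 95. DESeq2 called 2 higher and 9 lower, the likelihood ratio test of edgeR 2 higher and 9 lower, and RLE scaling 1 higher and 3 lower. Over all genes tested these fits called, in the same order, 220 and 435, 149 and 449, and 49 and 130. The median log2 fold change of the members was -0.01 and that of all genes -0.02.

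AU020206 (chromosome 7, 75769038 to 75782099, minus strand) overlapped no other gene body. It was at 146, 139 and 95.9 CPM in WT and at 56.6, 62.0 and 43.0 CPM in cKO CD103+CD11b- DCs. Every WT sample was above every cKO sample. The log2 fold change was -1.23 ± 0.19 SE (edgeR adjusted p = 0.0140). In CD103-CD11b+ DCs the levels were 146, 137 and 127 CPM in WT and 194, 146 and 153 CPM in cKO, a log2 fold change of 0.27 ± 0.18 SE that did not pass (edgeR adjusted p = 0.476). Of the 4 groups, that of cKO CD103+CD11b- DCs had the lowest mean. The nearest coding gene, Akap13, which encodes an A-kinase anchor protein and lies 14429 bases away, was at 863 ± 69.0 CPM in WT and 803 ± 21.5 in cKO CD103+CD11b- DCs (SD, n = 3; edgeR adjusted p = 0.886). The call was lost without WT replicate 1 (0.0702), WT replicate 2 (0.0779) or cKO replicate 1 (0.0655) of this subset.

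2900052N01Rik moved down where it had moved up in the other subset. Its 3 WT CD103+CD11b- samples were at 5.13, 1.37 and 4.20 CPM and the cKO samples at 0, 0.244 and 0 CPM. In reads this was 47 counts over the WT samples and 1 count over the cKO samples. The ratio of the summed counts was 38.91-fold, with a 95% exact interval of 6.65 to 1569 that covers counting error only. The edgeR adjusted p was 0.0321. It was above 0.05 without WT replicate 1 or 3, without any 1 of the 3 cKO replicates of this subset, or without cKO CD103-CD11b+ replicate 1 or 2 (adjusted p = 0.0502 to 0.149), and in a fit to these 6 samples alone (0.0716).

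Gm26780 (chromosome 11, 76614467 to 76622204, plus strand) lies within Abr, a GTPase-activating protein gene on the other strand. It was at 38.0, 39.6 and 23.1 CPM in WT and 6.66, 13.2 and 5.08 CPM in cKO CD103+CD11b- DCs, and at 22.0 to 43.3 CPM over the 6 CD103-CD11b+ samples. The log2 fold change was -1.99 ± 0.37 SE (edgeR adjusted p = 0.0360). Abr was at 367 ± 54.4 CPM in WT and 291 ± 7.60 in cKO CD103+CD11b- DCs (log2 fold change -0.34 ± 0.13 SE, edgeR adjusted p = 0.348). The call was lost without WT replicate 1 or 2 or cKO replicate 1 or 3 of this subset, or WT replicate 3 or cKO replicate 1 or 2 of the other (adjusted p = 0.0543 to 0.168), and in a fit to these 6 samples (0.0554). In this subset 0 members fell without WT replicate 1 or cKO replicate 1, 5 fell without WT replicate 3, and 1 fell without WT replicate 2, cKO replicate 3, or cKO replicate 1 or 2 of the other subset.

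Markers of other DCs moved with these 3 falls. In CD103+CD11b- DCs, 3 of 6 cDC2 markers fell in cKO, and the summed level of the plasmacytoid DC list of 5 genes was 863 to 1985 CPM in WT and 375 to 736 CPM in cKO, with 0 of the 5 called by edgeR, 5 at p under 0.05 and 3 called by DESeq2. The 9 T-cell and ILC markers summed to 137 to 287 CPM in WT and 48.9 to 94.7 in cKO. The epithelial list summed to 119 to 277 CPM in WT and 24.6 to 122 in cKO, with 1 of 8 markers lower, and the B-cell list to 53.3 to 93.5 and 106 to 144, with 1 of 9 higher. None of those markers was without a count in these files. The part of such cells in the levels of AU020206, 2900052N01Rik and Gm26780 was not tested. The 2 libraries left out for their stromal markers were of the other subset, and the same 3 members were called without them. In CD103+CD11b- replicates 1 to 3 the stromal list summed to 19.1, 18.3 and 430 CPM in WT and to 64.8, 282 and 79.0 in cKO. Stromal reads of this subset were not tested by that fit.

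The difference of the cKO effects between the subsets was tested as an interaction. It was called for 2 of 159 members (1.26%) and for 0.651% of all genes tested, 0.554% higher and 0.0972% lower (edgeR). It was called for 0.988% of the coding and 1.46% of the other long noncoding genes. 2900052N01Rik differed by 8.03 ± 1.03 SE on the log2 scale (edgeR adjusted p = 0.00986), a fitted size that rests on a group with 1 count in all, and it reached the mean count of a member only through the cKO CD103-CD11b+ samples. AU020206 differed by 1.498 ± 0.26 SE (edgeR adjusted p = 0.0369). Both were higher in the CD103-CD11b+ comparison. No member was called in the other direction by edgeR, where 3 of them and 975 of all 20580 genes tested had p under 0.05. DESeq2 called 10 members for the difference and the likelihood ratio test 8, each with 1 in the other direction. Over all genes tested DESeq2 called 333 higher and 169 lower, and the likelihood ratio test 302 and 111. The call for 2900052N01Rik held without any 1 library and was lost without the 2 libraries high in stromal markers (0.0581). That for AU020206 held without WT CD103-CD11b+ replicate 1 or WT CD103+CD11b- replicate 3 and was lost without any other library (0.0613 to 0.112) and without the 2 libraries high in stromal markers (0.134), and 4 members were called without WT CD103+CD11b- replicate 3. The log2 cKO effects of the 159 members in the 2 subsets, which share no samples, had a Pearson r of -0.02 and a Spearman correlation of 0.18 across genes. These are descriptions, since genes of one library are not independent.

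**Figure D2:**
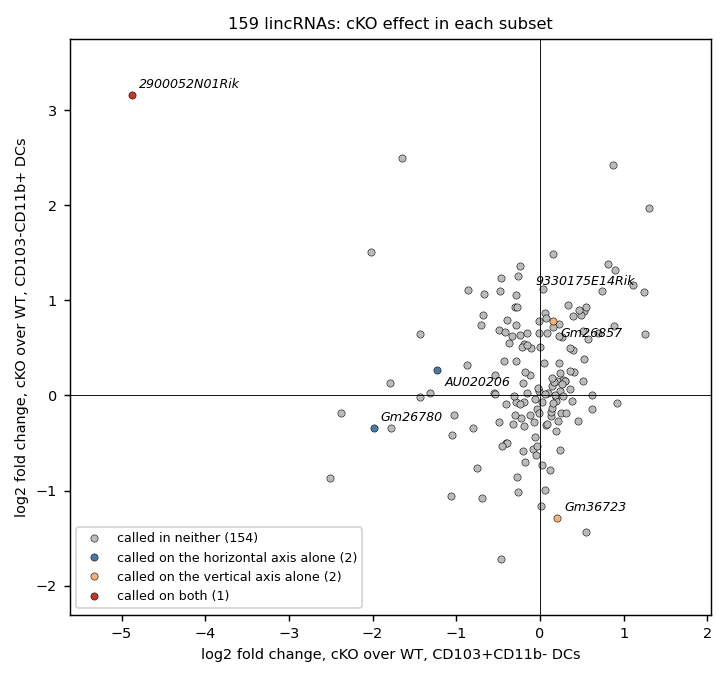
log2 fold change of cKO over WT for the CD103+CD11b- (horizontal axis) and the CD103-CD11b+ subset (vertical axis) for 159 lincRNAs, each a point coloured by where it was called. 2900052N01Rik stands alone at -4.88 and 3.16, and 154 members were called in neither subset.

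The subsets differed far more than the genotypes. In WT mice 10 members were higher in CD103-CD11b+ DCs and 26 higher in CD103+CD11b- DCs, together 22.6% of the members against 18.8% of all genes tested (edgeR). In cKO mice 22 were higher in CD103-CD11b+ and 19 in CD103+CD11b- DCs, together 25.8% against 16.1%. Among autosomal coding genes at the same mean count the shares were 24.2% in WT and 22.2% in cKO, and among the other long noncoding genes 20.5% and 21.4%. In WT, 7.0% of all genes tested were called higher in the CD103+CD11b- and 11.8% in the CD103-CD11b+ subset, against 16.4% and 6.29% of the members. In cKO it was 6.81% and 9.26% of all genes, against 11.9% and 13.8% of the members. The other long noncoding genes leaned the same way as the members, with 12.8% and 7.67% in WT and 8.68% and 12.7% in cKO. The 9 macrophage markers summed to 19.7 to 73.2 CPM in the CD103+CD11b- and 175 to 533 in the CD103-CD11b+ samples, and the 4 neutrophil markers to 1.56 to 5.47 and 40.4 to 136. The B-cell list summed to 53.3 to 93.5 CPM in the CD103+CD11b- and 165 to 365 in the CD103-CD11b+ samples of WT mice, and to 106 to 144 and 330 to 852 in those of cKO mice. The stromal list summed to 19.1, 18.3 and 430 CPM in WT CD103+CD11b- replicates 1 to 3 and to 389 to 1146 in the WT CD103-CD11b+ samples, and to 64.8 to 282 and 66.3 to 1484 in those of cKO mice. The part of such cells in the subset differences was not tested. Of the called members, 6 of 36 in WT and 5 of 41 in cKO had a mean under 20 counts without their highest group, as 22 of all 159 did, and so were members only through that group. The median log2 difference of CD103-CD11b+ minus CD103+CD11b- was -0.14 for the members and 0.07 for all genes in WT. In cKO it was 0.04 and 0.11. For the other long noncoding genes it was -0.17 in WT and 0.09 in cKO. Setting the 1 member at 0 in a group to its bound left the medians of the members as they were. Of the members, 21 were called in both genotypes, each with the same sign, 14 of them higher in CD103+CD11b- and 7 in CD103-CD11b+ DCs. These 21 are 58.3% of the WT calls and 51.2% of the cKO calls. The same overlap was not counted over all genes tested, so it shows nothing particular to the members. The log2 differences in WT and in cKO, from separate samples, had a Pearson r of 0.75 and a Spearman correlation of 0.68 over the 159 members.

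Several of these members stood out as marks of CD103+CD11b- DCs. Gpr141b, which GENCODE M21 lists as a lincRNA and which is also known as Karma, a locus used to mark cDC1 in reporter mice, was at 168, 211 and 207 CPM in WT CD103+CD11b- and at 5.48, 3.66 and 19.2 CPM in WT CD103-CD11b+ DCs. In cKO mice it was at 338, 361 and 380 CPM and at 19.8, 7.14 and 20.9 CPM. The subsets did not overlap in either genotype. The log2 difference was -4.38 ± 0.53 SE in WT (edgeR adjusted p = 0.000571) and -4.53 ± 0.52 SE in cKO (0.000200). All 3 cKO CD103+CD11b- samples were above the WT samples of that subset, but the cKO effect did not pass (log2 fold change 0.88 ± 0.44 SE, edgeR adjusted p = 0.547). Its neighbour Gpr141, a coding gene 16731 bases away, was higher in CD103-CD11b+ DCs, at 67.0 ± 9.16 against 146 ± 36.9 CPM in WT (edgeR adjusted p = 0.0163).

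Gm36723, described above for its fall in cKO, was the member with the smallest p in either subset comparison. It was at 244, 273 and 188 CPM in WT CD103+CD11b- DCs and at 292, 314 and 205 CPM in those of cKO mice. Against the CD103-CD11b+ values given above, the log2 difference was -2.76 ± 0.26 SE in WT (edgeR adjusted p = 0.000108) and -4.25 ± 0.28 SE in cKO (6.67e-06). The difference between these differences did not pass (edgeR adjusted p = 0.114). Id2 was at 179 ± 46.7 and 114 ± 14.1 CPM in the WT subsets (edgeR adjusted p = 0.0517).

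Gm26603 (chromosome 2, 52859723 to 52863516, minus strand), within the formin gene Fmnl2 on the other strand, was at 162, 161 and 139 CPM in WT CD103+CD11b- and 48.0, 32.6 and 25.3 CPM in WT CD103-CD11b+ DCs. The log2 difference was -2.12 ± 0.20 SE (edgeR adjusted p = 0.000113). Fmnl2, an actin regulator, differed in the same direction, from 443 ± 37.3 to 165 ± 4.05 CPM (log2 difference -1.42 ± 0.16 SE). The exons of Gm26603 shared no base with exons of Fmnl2, but intronic reads of Fmnl2 that fall on them would be counted for it.

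1810020O05Rik was listed at 7.86, 6.18 and 9.38 CPM in WT CD103+CD11b- DCs and at 0 in all 3 WT CD103-CD11b+ samples. Set against a floor of 3 counts per library, 0.587 to 0.999 CPM, it was at least 9.52-fold higher in CD103+CD11b- DCs. In cKO mice it was at 22.0, 20 and 16.0 CPM against 1 count over the CD103-CD11b+ samples, a ratio of 211 with a 95% exact interval of 37.5 to 8380, which is not comparable with the bound in WT. Of its exon bases, 52.3% were shared with another gene. 1700009J07Rik, 1461 bases from the coding gene Lrrc3 in convergent orientation, had 154 counts over the WT CD103+CD11b- and 2 over the WT CD103-CD11b+ samples (ratio 66.0, 95% exact interval 17.95 to 550). Lrrc3 differed in the same direction, from 27.0 ± 6.26 to 2.55 ± 1.34 CPM (edgeR adjusted p = 0.00343). The subsets did not overlap for either lincRNA in either genotype. Both are members only through the group where they were highest, with a mean of 12.1 counts for 1810020O05Rik outside cKO CD103+CD11b- DCs and of 13.1 for 1700009J07Rik outside WT CD103+CD11b- DCs.

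Gm26520, Gm17200, Gm31718, Gm5086 and Gm1965 were the other members named by smallest p on the CD103+CD11b- side in WT mice. Their log2 differences ran from -4.61 for Gm26520 to -2.33 for Gm31718. Gm26520 fell from 16.1, 23.3 and 20.2 CPM to 0.783, 1.33 and 0.291 CPM. Of these, Gm5086 was not called in cKO mice, where its log2 difference was 0.92 (edgeR adjusted p = 0.252). In WT CD103+CD11b- DCs it was at 15, 16.9 and 5.17 CPM, so that 1 sample lay well below the others, and it is a member only through this group, with a mean of 13.6 counts over the other samples. The adjusted p of Gm1965 was above 0.05 without WT CD103+CD11b- replicate 1 (0.0525) or 2 (0.0501). Gm17200 shared 37.5% of its exon bases with other genes, and Gm26520 none.

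On the CD103-CD11b+ side, Gm26835 (chromosome 10, 13967024 to 14007405, minus strand) had the smallest p in WT mice. It was at 19.5, 15.1 and 18.1 CPM in CD103+CD11b- and 48.5, 42.0 and 38.7 CPM in CD103-CD11b+ DCs of WT mice, and at 18.2 to 22.5 and 59.3 to 77.5 CPM in those of cKO mice. The log2 differences were 1.296 ± 0.16 SE (edgeR adjusted p = 0.000766) and 1.70 ± 0.17 SE (6.52e-05). It lies across Hivep2, a zinc-finger transcription factor gene, on the other strand, and Hivep2 was also higher, at 501 ± 60.1 against 188 ± 34.3 CPM in WT. Of the exon bases of Gm26835, 21.1% were shared with another gene.

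Gm48065 lies 69388 bases from Prdm1, which encodes the repressor Blimp-1. It was at 4.45, 3.66 and 2.59 CPM in CD103+CD11b- and 14.7, 13.3 and 13.7 CPM in CD103-CD11b+ DCs of WT mice, and in cKO mice at 2.0, 2.44 and 1.96 against 15.3, 24.7 and 30.1 CPM. The log2 difference was 1.98 ± 0.30 SE in WT (edgeR adjusted p = 0.00219) and 3.42 ± 0.33 SE in cKO (5.57e-05). Prdm1 was at 15.2 ± 14.7 and 175 ± 130 CPM in the WT subsets and at 14.4 ± 5.29 and 204 ± 5.52 in those of cKO mice, and was called higher in CD103-CD11b+ DCs in each. The WT samples with the most Prdm1 and with the most Gm48065 were not the same.

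Gm38399, Gm19951, Gm16907, D930016D06Rik, Pvt1, Gm38910, Gm15609 and AW112010 completed the WT members higher in CD103-CD11b+ DCs, with log2 differences from 0.92 to 4.02. The value of 4.02 was that of Gm15609, antisense to Shank3, at 0.342, 0 and 5.82 against 12.9, 75.0 and 25.6 CPM. Its highest sample, WT CD103-CD11b+ replicate 2, was also the WT sample of that subset with the most stromal markers, and the call was lost without it (edgeR adjusted p = 0.123), without WT CD103+CD11b- replicate 1 (0.113) or 2 (0.0955), WT CD103-CD11b+ replicate 3 (0.0538) or cKO CD103-CD11b+ replicate 1 (0.0501), without the 2 libraries high in stromal markers (0.131) and in a fit to the 6 samples (0.0800). Shank3 moved with it, at 21.8 ± 30.3 and 365 ± 251 CPM. Carmn, a lincRNA known from smooth muscle, was at 0, 0 and 6.47 CPM in WT CD103+CD11b- samples and at 6.66, 25.0 and 17.2 CPM in WT CD103-CD11b+ samples, where the stromal list summed to 389, 1146 and 1031 CPM. In cKO CD103-CD11b+ samples Carmn was at 2.24, 20.2 and 0 CPM, beside stromal sums of 485, 1484 and 66.3 CPM. It was not called in any comparison, and was named after its values were seen. D930016D06Rik fell short without WT CD103+CD11b- replicate 2 (0.0518), and Gm38910 without WT CD103+CD11b- replicate 1 or 2 or WT CD103-CD11b+ replicate 3 (0.0743 to 0.0953), without the 2 libraries high in stromal markers (0.0560) or in a fit to the 6 samples (0.0714).

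In cKO mice the 5 members with the smallest p on the CD103-CD11b+ side were Gm48065, Gm26835, 2900052N01Rik, AU020206 and Gm34084. 2900052N01Rik had 1 count over the CD103+CD11b- and 317 over the CD103-CD11b+ samples of cKO mice, a ratio of 333 (95% exact interval 59.4 to 13201), whereas its WT means were 3.57 ± 1.96 and 3.36 ± 1.96 CPM. The high group of this comparison is the one through which it became a member. Gm34084 was at 1.78, 2.20 and 2.74 against 8.76, 13.6 and 13.3 CPM in cKO, and at 6.0 ± 0.293 against 7.52 ± 2.38 CPM in WT. On the other side were Gm36723, Gm26603, 1810020O05Rik, Gpr141b and Gm26520. These 10 members stayed called in each alternative fit in which they were tested. The number of calls was less steady. In WT, 6 members were higher and 10 lower without CD103+CD11b- replicate 1, and 5 and 10 without replicate 2, while 14 were lower without CD103-CD11b+ replicate 2, 17 without replicate 3 and 14 without the 2 libraries high in stromal markers. In cKO, 11 were lower without CD103+CD11b- replicate 1.

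**Figure D3:**
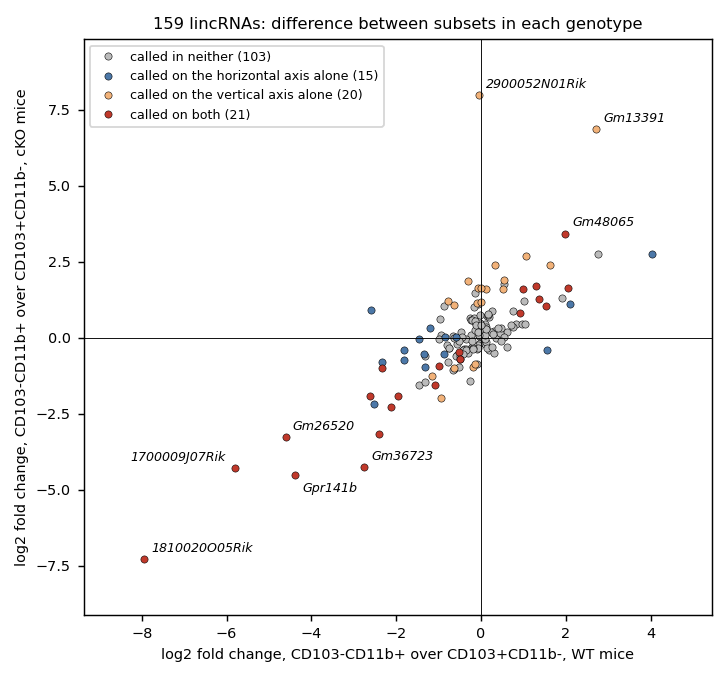
log2 fold change of CD103-CD11b+ over CD103+CD11b- DCs in WT mice (horizontal axis) and in cKO mice (vertical axis) for 159 lincRNAs, coloured by where each was called. The 21 members called in both genotypes lie in the lower left and upper right of the plot, and 2900052N01Rik lies at -0.06 in WT and 7.98 in cKO, a fitted value resting on 1 count in the low group.

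The 3 most abundant members, also per kilobase of exon, were called in no comparison. Neat1, the scaffold of paraspeckles, Malat1, a resident of nuclear speckles, and Gm26917, a locus with sequence like ribosomal RNA, together took 56.9% of the mean counts on the members. All members together took 0.768% to 1.19% of the counts on genes in a sample. Per kilobase of exon the highest levels were those of Gm26917 (459 CPM per kb), Malat1 (208), Neat1 (113), Gdap10 (73.7) and Mir142hg (64.9), and the median member was at 5.14 CPM per kb. Gdap10 lies in Nampt on the same strand, and was at 145, 111 and 276 CPM in WT and 324, 393 and 611 in cKO CD103-CD11b+ DCs (edgeR adjusted p = 0.0783).

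Neat1 was at 1762, 1614 and 1795 CPM in WT and 1727, 1812 and 2736 CPM in cKO CD103+CD11b- DCs, and at 2210, 2962 and 3198 CPM in WT and 1918, 2223 and 4190 CPM in cKO CD103-CD11b+ DCs. In WT all CD103-CD11b+ samples were above all CD103+CD11b- samples, without passing the test (log2 difference 0.69 ± 0.28 SE, edgeR adjusted p = 0.110). Malat1 was at 907 to 2103 CPM and Gm26917 at 973 to 2557 CPM over the 12 samples. The highest values of Neat1, Malat1 and Gm26917 were all in cKO CD103-CD11b+ replicate 3, which had the fewest counts on genes of the 12. In cKO CD103+CD11b- replicate 3, the sample of that group with the fewest counts, Neat1, Malat1 and Gm26917 were also higher than in the other 2. Of 14 genes for paraspeckle and nuclear speckle proteins, 0 were called in the 5 tests (edgeR). At p under 0.05 there were 2 in the WT and 1 in the cKO subset comparison and none in the other 3, and DESeq2 called none.

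The list of nuclear and architectural lincRNAs held 12 genes, of which 11 were tested and 6 were members. Only Pvt1 of the 11 was called, in each subset comparison, where 11.8% of all genes tested were higher in CD103-CD11b+ DCs in WT and 9.26% in cKO mice. Pvt1, a lincRNA downstream of Myc, was at 14.4, 11 and 21.8 CPM in CD103+CD11b- and 51.1, 31.7 and 38.7 CPM in CD103-CD11b+ DCs of WT mice (log2 difference 1.36 ± 0.35 SE, edgeR adjusted p = 0.0226), and at 8.30 to 14.5 and 18.8 to 41.3 CPM in those of cKO mice (1.27 ± 0.36 SE, 0.0330). In WT the call was lost without CD103+CD11b- replicate 1 (0.0799) or 2 (0.101) or CD103-CD11b+ replicate 1 (0.0641). Myc, 47612 bases away, was at 47.7 ± 6.0 and 82.0 ± 22.3 CPM in WT (edgeR adjusted p = 0.0691). Lncpint, which is induced by p53, was at 201 to 295 CPM in WT and 283 to 629 CPM in cKO CD103-CD11b+ DCs (edgeR adjusted p = 0.131). 1700020I14Rik, also known as Oip5os1 or Cyrano, which directs decay of miR-7, was at 138 to 237 CPM over all samples. In the 3 cKO tests edgeR called 0 of the 11, with 2, 0 and 1 at p under 0.05 in CD103-CD11b+ DCs, in CD103+CD11b- DCs and for the difference, and DESeq2 called 2, 0 and 0.

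Of 11 listed lincRNAs of immune cells 7 were tested and 3 were members. AW112010, an interferon-induced and inflammation-induced transcript, was at 25.3, 27.0 and 17.3 CPM in CD103+CD11b- and 39.5, 66.3 and 32.0 CPM in CD103-CD11b+ DCs of WT mice (log2 difference 0.99 ± 0.29 SE, edgeR adjusted p = 0.0385), and at 17.1 to 29.0 and 60.2 to 69.7 CPM in those of cKO mice (1.59 ± 0.30 SE, 0.00414). The subsets did not overlap in either genotype, but the WT call was lost without any 1 WT CD103+CD11b- replicate (0.0837 to 0.120), WT CD103-CD11b+ replicate 2 (0.166), or cKO CD103-CD11b+ replicate 1 (0.0615) or 2 (0.0553), without the 2 libraries high in stromal markers (0.192) and in a fit to the 6 samples (0.0743). Mirt1 was higher in CD103-CD11b+ DCs of cKO mice, at 31.4, 33.8 and 32.1 against 18.4, 13.2 and 10.6 CPM (log2 difference 1.20 ± 0.30 SE, edgeR adjusted p = 0.0190), and in WT mice its log2 difference was -0.77 (0.0900). The difference of its cKO effects did not pass (edgeR adjusted p = 0.0719). Gm14005, also known as Morrbid, which limits Bcl2l11 and so prolongs the life of myeloid cells, was at 14.7 to 29.4 CPM over the 12 samples and was called in no comparison. In all, 1 of the 7 was called higher in CD103-CD11b+ DCs in WT and 4 in cKO mice (AW112010, Mirt1, Ptgs2os and Ptgs2os2), where 11.8% and 9.26% of all genes tested were called higher. In the cKO tests edgeR called 0 of the 7, with 1, 2 and 2 at p under 0.05 in CD103-CD11b+ DCs, in the other subset and for the difference, and DESeq2 called 1, 0 and 1.

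Of 18 snoRNA host genes 15 were tested and 3 were members, Snhg6, Snhg12 and Snhg20, none of which was called. Among the 15, Snhg18 was called higher in CD103-CD11b+ DCs in WT, and Snhg15 and Snhg18 in cKO mice, against 11.8% and 9.26% of all genes tested that were called higher. Of 10 microRNA host genes 7 were tested, 3 were members and Mir99ahg, no member, was called higher in CD103-CD11b+ DCs in WT mice. In that comparison the 7 had a median log2 difference of 1.04, against 0.07 over all genes tested, with 4 at p under 0.05, and DESeq2 and the likelihood ratio test each called 3. The median cKO effect of the 7 in CD103+CD11b- DCs was 1.10 on the log2 scale, with none called. Mir142hg, whose products are printed above and mark blood cells, was at 10.7 to 28.6 CPM over the 12 samples. Mir155hg, whose miR-155 is induced on activation of myeloid and lymphoid cells, was at 1.37, 3.43 and 0.970 CPM in CD103+CD11b- and 4.11, 5.33 and 12.5 CPM in CD103-CD11b+ DCs of WT mice, just short of the threshold (log2 difference 1.91 ± 0.62 SE, edgeR adjusted p = 0.0524). Mir17hg was at 5.81 to 8.73 and 12.3 to 20.7 CPM in the same groups (edgeR adjusted p = 0.0799). In the cKO tests edgeR called 0 of the 15 and 0 of the 7, as did DESeq2, and the count at p under 0.05 was 2 snoRNA hosts in CD103-CD11b+ DCs and none elsewhere.

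E130102H24Rik, the host of miR-101a, was outside these lists and was called in both subset comparisons. It was at 10.3, 16.5 and 15.5 CPM in CD103+CD11b- and 3.92, 6.66 and 9.60 CPM in CD103-CD11b+ DCs of WT mice (log2 difference -1.08 ± 0.33 SE, edgeR adjusted p = 0.0443), and at 13.3 to 18.5 and 4.94 to 6.63 CPM in those of cKO mice (-1.57 ± 0.34 SE, 0.00986). The subsets did not overlap in either genotype. 6720427I07Rik, the host of 3 let-7 microRNAs, was at 11.3 to 20.7 CPM over the 12 samples, with log2 differences of 0.04 in WT and -0.01 in cKO. Both were named after their values were seen.

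**Figure D4:**
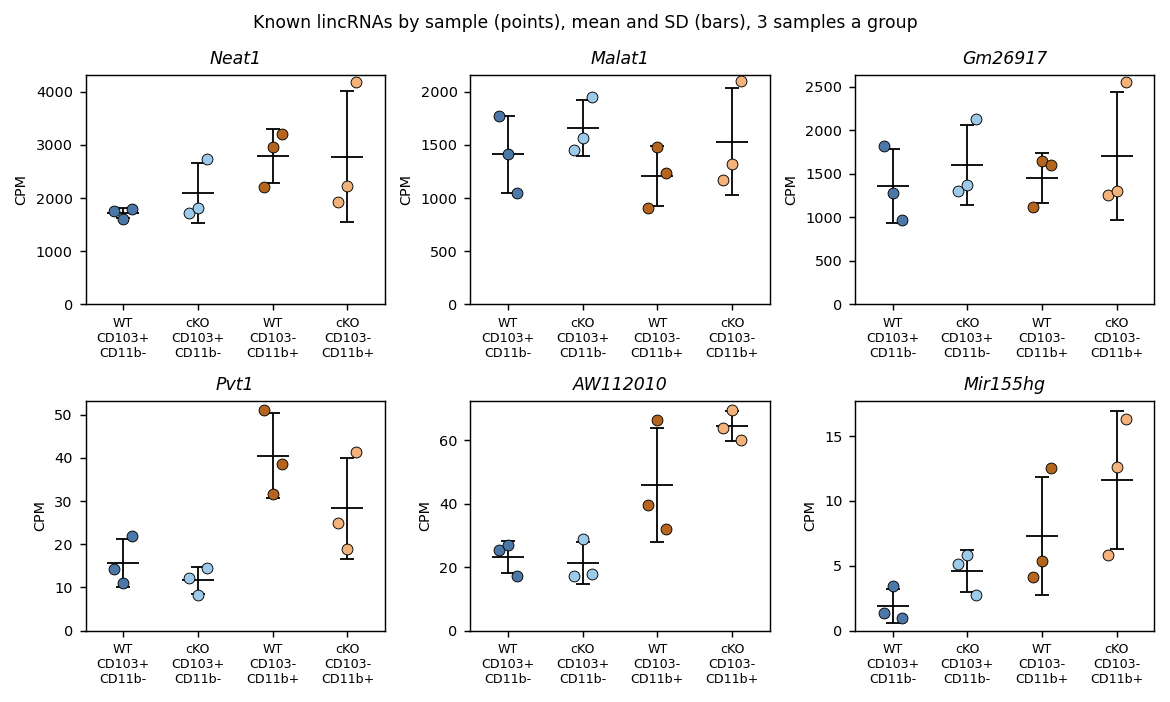
CPM (vertical axis, linear) of 6 known lincRNAs in the 4 groups; points are samples, the long bar is the mean and whiskers are 1 SD (n = 3). Pvt1 and AW112010 are higher in CD103-CD11b+ samples, and the top points of Neat1, Malat1 and Gm26917 are all cKO CD103-CD11b+ replicate 3.

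Position relative to coding genes enters the members' biotype but was not otherwise used to choose them. Of the 159, 104 overlapped another gene body, 67 shared exon bases with another gene, 62 overlapped a coding gene body, and 40 more lay within 5 kb of a coding gene. Only 55 were free of any other gene body. The log2 difference between the WT subsets had a Pearson r of 0.84 and a Spearman correlation of 0.67 with that of the nearest coding gene over the 59 overlapping pairs in which both were tested, of 0.50 and 0.51 over 39 pairs within 5 kb, and of 0.13 for both over 43 pairs further apart. In cKO mice the Pearson r was 0.83, 0.54 and 0.19 and the Spearman correlation 0.77, 0.55 and 0.31. For the cKO effect in CD103-CD11b+ DCs they were 0.74, 0.47 and 0.04 and 0.75, 0.41 and 0.11. In CD103+CD11b- DCs the Pearson r was 0.74, 0.35 and 0.24 and the Spearman correlation 0.70, 0.44 and 0.33. These correlations run across genes that share libraries and have no p. In overlapping pairs, intronic reads of the coding gene that fall on exons of the lincRNA would be counted for the lincRNA.

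Among members called between the WT subsets with a tested neighbour, the neighbour differed in the same direction for 9 of 10 overlapping pairs, 7 of 7 within 5 kb and 8 of 14 further away. The neighbour was itself called in that direction in 8, 3 and 3 of them. In cKO mice the direction was the same for 12 of 14, 4 of 5 and 12 of 16, and the neighbour was called in 10, 2 and 4 of them. Gm38399 was called without its neighbour among the overlapping pairs, at 11.9 ± 3.34 and 34.4 ± 6.25 CPM in the WT subsets while Nav1, whose body it overlapped at the end on the same strand, was at 700 ± 15.1 and 731 ± 40.6 CPM. Gm47662, 1500 bases from Serpinb9, a granzyme B inhibitor gene, had a log2 difference of -2.34 beside one of -1.66 for Serpinb9. When the 104 members that overlapped another gene body were set aside, 4 members were higher and 15 lower in WT and 7 higher and 8 lower in cKO CD103-CD11b+ DCs among the 55 left. Of all genes tested 11.8% were higher and 7.0% lower in WT, and 9.26% and 6.81% in cKO. 2900052N01Rik and AU020206 were among these 55, and were then the only ones called for a cKO effect or for the difference of the cKO effects.

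**Figure D5:**
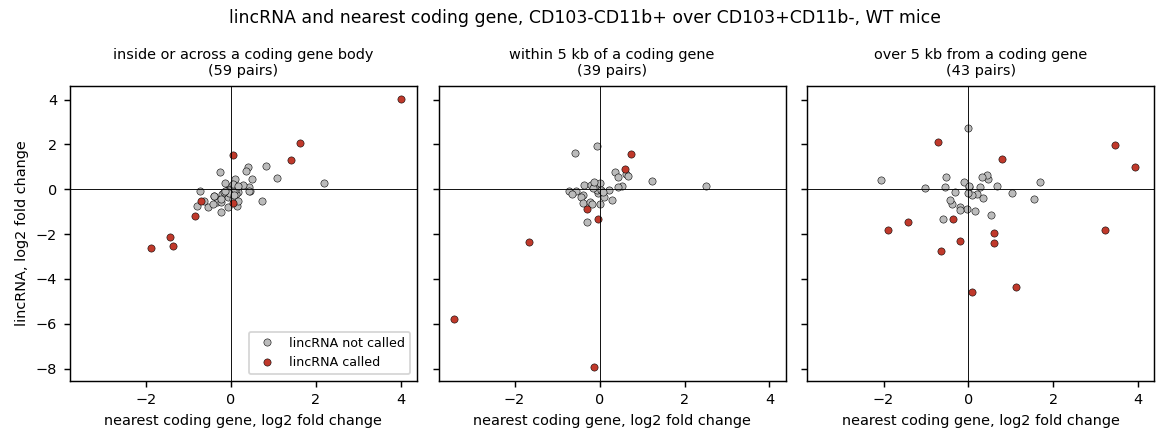
log2 fold change (CD103-CD11b+ over CD103+CD11b- DCs, WT mice) of each lincRNA (vertical axis) against its nearest coding gene (horizontal axis), in panels by distance; red points are called lincRNAs. Points follow the diagonal in the panel of overlapping pairs (r = 0.84, 59 pairs) and scatter in the panel of pairs over 5 kb apart (r = 0.13, 43 pairs).

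The spread among replicates is given as a description, and its part in the number of calls was not tested. The median coefficient of variation of a member was 20.1% in WT and 21.9% in cKO CD103+CD11b- samples, and 31.15% in WT and 26.4% in cKO CD103-CD11b+ samples. On the log2(CPM + 1) scale the median member had an SD of 0.40 within groups and a range of 0.90 over the 4 group means. Over all 5 tests, 56 members were called at least once and 103 in none. For a cKO effect or for the difference of the cKO effects 5 were called. These totals were not counted over all genes tested, so they show nothing particular to the members, and the background of each test is given above.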

How the data were processed

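RNA-seq of sorted DCs (total RNA, random-primed libraries from small numbers of cells) was used from 12 samples. The authors trimmed reads (Trim Galore), mapped them to mm10 (STAR 2.7) and dropped duplicates and poorly mapped reads. They counted the rest per gene without strand (htseq-count). The deposited files hold raw counts, with 5 summary lines that were left out. In these lines 59.7% to 66.1% of reads were assigned to no feature, which does not mean that they lay outside genes. Of 53801 gene IDs, 53706 matched GENCODE M21 (GRCm38). Genes with at least 5 counts in at least 1 of 12 samples (20580) were fitted together by group in edgeR 4.0.16 (quasi-likelihood, TMM, R 4.3.3), and p-values were adjusted by Benjamini-Hochberg over all of them; called means FDR under 0.05 and fold over 1.3. SE is the absolute log2 fold change over the square root of F. Intervals cover counting error only. The fits were tested on simulated data. Named were members called for a cKO effect or its difference, the 10 (WT) and 5 (cKO) smallest p per direction between subsets, the 5 highest per kb, and members in lists. The members and lists were chosen with earlier results of these data known. DESeq2 1.42.0 and other settings were alternatives. Deviations of same-numbered samples of the 2 subsets had r of 0.112, 0.321 and 0.354 in cKO mice and 0.357, -0.0846 and 0.352 in WT mice. Between genotypes r ran from -0.09 to 0.42. The labels do not say that a number marks a mouse, and 3 pairs per genotype cannot settle it. The main fit was not blocked.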

Additional observations from a re-analysis of the deposited data

Results flagged for a closer look

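The cKO effect on 2900052N01Rik differed between the subsets by 8.03 on the log2 scale by the interaction test of edgeR (adjusted p = 0.00986), with a rise in CD103-CD11b+ and a fall in CD103+CD11b- DCs. This gene reached the mean count of a member only through the cKO CD103-CD11b+ samples, with a mean of 9.78 counts over the other 9 samples. All 3 cKO samples lay on the stated side of all 3 WT samples in each subset. The cKO effect on AU020206 differed by 1.498 (same test, adjusted p = 0.0369). AU020206 fell in CD103+CD11b- DCs, and its change of 0.27 in CD103-CD11b+ DCs did not pass. The call for this difference was lost in 11 of 21 alternative fits.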

How the results depend on the processing

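Member counts are given as higher and lower in the order CD103-CD11b+ cKO effect, CD103+CD11b- cKO effect, WT subsets, cKO subsets, and difference of effects. They were 2 and 1, 0 and 3, 10 and 26, 22 and 19, 2 and 0. Requiring 5 counts in every sample, which leaves 138 members, gave 6 and 2, then 1 and 3. filterByExpr gave 5 and 2, then 1 and 3. No filter gave 4 higher, then 5 lower, and 4 for the difference. RLE scaling gave 2 lower, then 1 higher. DESeq2 gave 15 and 3, 2 and 9, and 9 and 1 for the difference. The likelihood ratio test gave 12 and 3, 2 and 9, and 7 and 1. Fits to 6 samples gave 0 and 0, 1 and 1, and 14 lower between WT subsets. FDR under 0.01 gave 0 and 0, 0 lower, 6 and 9, 11 and 10, and 1. A mean of 50 or more gave 1 higher, then 9 lower in WT, 13 and 12 in cKO and 1. Without members overlapping another gene, 1 and 0, 4 and 15, and 7 and 8 were left. Without the 2 libraries high in stromal markers, an alternative chosen after seeing the data, 0 and 0, 14 lower in WT and 0 for the difference remained. The replicate block gave 9 and 2, 2 and 8, 16 higher in WT, and 4 and 1. Blocked within genotype, WT had 17 higher and the difference 4 and 1. In cKO, where r was above 0 in all same-numbered pairs, that block gave 31 and 25, kept all 41 calls and moved no count by over 1.5 times. Leaving out 1 sample gave 0 to 5 and 0 to 1, 0 to 1 and 0 to 5, 5 to 12 and 10 to 28, 15 to 23 and 11 to 23, and 1 to 4 and 0. Counts not given here stayed within 1.5 times. Of 816 refits of single named members, 737 kept their call, 79 lost it, and 0 changed direction. The cause of these changes was not tested. At these depths 3 counts are 0.485 to 1.53 CPM, so members near that level could not be ranked.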
